A study of Mus musculus with 10 samples.

Results

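Of the 24421 genes listed, 10 were taken by their symbols because they mark the scar-forming response of the liver: the fibrillar collagen genes Col1a1, Col1a2 and Col3a1, the stellate cell and myofibroblast genes Lrat and Acta2, the protease inhibitor genes Timp1 and Timp3, and the TGF-beta pathway genes Tgfb1, Tgfbr2 and Smad7. They were described across livers of 10 male wild-type C57BL/6 mice (C57BL/6J in the methods of the study) aged 21 weeks with free access to food, 5 fed standard chow (Chow) and 5 fed chow mixed with TM5614 at 20 mg/kg/day for 10 days (TM5614). TM5614 is a small molecule, taken by mouth, that inhibits PAI-1, an inhibitor of plasminogen activators. No fibrosis-inducing diet, toxin or genetic lesion was part of either group, so the levels are those of livers not subjected to a model of fibrosis. The 5 libraries of a group are from separate mice, and whole liver was sequenced, so fewer cells of a type and less RNA per cell cannot be told apart.

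As background, quiescent hepatic stellate cells store retinyl esters, which the enzyme LRAT makes, and after injury they can turn into contractile myofibroblasts that contain alpha smooth muscle actin and secrete collagens I and III. TGF-beta 1 drives this conversion: it binds the type II receptor, which recruits and phosphorylates the type I receptor, and the receptor pair phosphorylates SMAD2 and SMAD3, which enter the nucleus with SMAD4. SMAD7, whose gene is itself induced by this signal, binds the receptor and blocks it. TIMPs inhibit the metalloproteinases that break down matrix.

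The proximal promoters of Col1a2, Col3a1 and Acta2 are shown because these genes encode the matrix and contractile proteins by which stellate cell conversion is usually read, and because the collagen genes varied together between livers while Acta2 lay near its detection floor in 9 of 10. Each sequence holds the 250 bases before the RefSeq transcription start on GRCm38.p6, 5′ to 3′ in the direction of transcription. By the gene bounds of GENCODE, which hold transcripts that start further upstream, the Col1a2 window lies inside the gene and so does most of the Acta2 window. Capitals mark the SMAD box CAGAC, which reads GTCTG on the other strand. They also mark the CCAAT box and the TATA box, searched for as TATAAA.
Col1a2 (chr6:4505368-4505617, plus strand): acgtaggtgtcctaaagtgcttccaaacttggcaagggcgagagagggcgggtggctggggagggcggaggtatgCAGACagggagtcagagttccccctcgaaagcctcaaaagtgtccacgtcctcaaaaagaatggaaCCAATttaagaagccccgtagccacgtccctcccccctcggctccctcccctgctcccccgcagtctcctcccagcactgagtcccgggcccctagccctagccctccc
Col3a1 (chr1:45311288-45311537, plus strand): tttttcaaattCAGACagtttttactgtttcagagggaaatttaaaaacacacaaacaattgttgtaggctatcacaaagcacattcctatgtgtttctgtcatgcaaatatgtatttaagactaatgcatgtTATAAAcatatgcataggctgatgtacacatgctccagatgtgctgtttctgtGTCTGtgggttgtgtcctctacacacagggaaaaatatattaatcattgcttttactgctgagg
Acta2 (chr19:34255374-34255623, minus strand): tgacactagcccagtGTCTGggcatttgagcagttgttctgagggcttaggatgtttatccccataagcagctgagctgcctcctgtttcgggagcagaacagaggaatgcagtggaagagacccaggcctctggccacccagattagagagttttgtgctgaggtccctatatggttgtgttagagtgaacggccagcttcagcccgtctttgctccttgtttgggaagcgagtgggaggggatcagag

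The window of Col1a2 held 1 SMAD box, starting 175 bases before the start, 1 CCAAT box 109 bases before it and GC boxes (GGGCGG) at 205 and 188 bases. The window of Col3a1 held SMAD boxes 239 and 64 bases before the start and a TATA box at 117 bases, and that of Acta2 held 1 SMAD box at 235 bases. The CArG box, searched for as CCWWWWWWGG with W for A or T, was not found in the Acta2 window. It was found in 1.47% of all windows, and inexact matches were not searched for. Among the 8 promoter windows of these genes that were read, Tgfbr2 was the fourth with a SMAD box, at 160 bases. The 5-letter SMAD box was found, on either strand, in 42.2% of 32851 promoter windows of this length, the CCAAT box in 33.8%, the GC box in 32.7% and the TATA box in 7.59%. Such matches are letters in a window and do not show that a factor binds.

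The libraries held 6398335 to 10874955 counts. Chow 2 (replicate 2 of the Chow group) stood apart, with a mean correlation of 0.927 with the rest of its group against 0.965 to 0.982 for the other 9 libraries, and with 46.05% of its gene-wise deviations following GC content and gene length against 0.763% to 11.5% elsewhere. TM5614 2 held skeletal muscle RNA: the summed CPM (counts scaled to library size) of 18 skeletal muscle genes was 5229 there, 92.5 at most in the other TM5614 libraries and 0.970 to 1.54 in Chow. Hepatocyte markers were high in every library, with summed levels of 143964 to 161274 CPM in Chow and 132402 to 151611 CPM in TM5614. Values without Chow 2 and TM5614 2 are therefore given beside the results they touch.

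Across the 10 genes, Smad7 was higher in TM5614 livers and no difference passed the test for the collagens, Lrat, Timp3, Tgfb1 or Tgfbr2. Differences were tested with edgeR's quasi-likelihood test with Benjamini-Hochberg adjustment over 11092 genes. Of these, 499 passed an adjusted p of 0.05, which is 4.5% of the genes tested, with 192 higher (1.73%) and 307 lower (2.77%) in TM5614. Acta2 and Timp1 were too low for the filter on counts, and 1 of the 8 genes tested passed. None of the other 7 had an unadjusted p under 0.05, and none passed with DESeq2 or limma-voom. The fold estimates were above 0 for 7 of the 8 and below 0 for 1, with a median log2 fold change of 0.18 against 0.01 over all genes tested, of which 51.5% had an estimate above 0. Without TM5614 2, those of Col1a1 (-0.10), Col1a2 (-0.04), Col3a1 (-0.35) and Timp3 (-0.09) were below 0 as well. The CPM ranges of both groups overlapped for each of the 8, whereas 991 genes, 8.93% of those tested, had ranges that did not overlap, 451 of them (4.07%) with TM5614 above Chow.

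**Figure D1:**
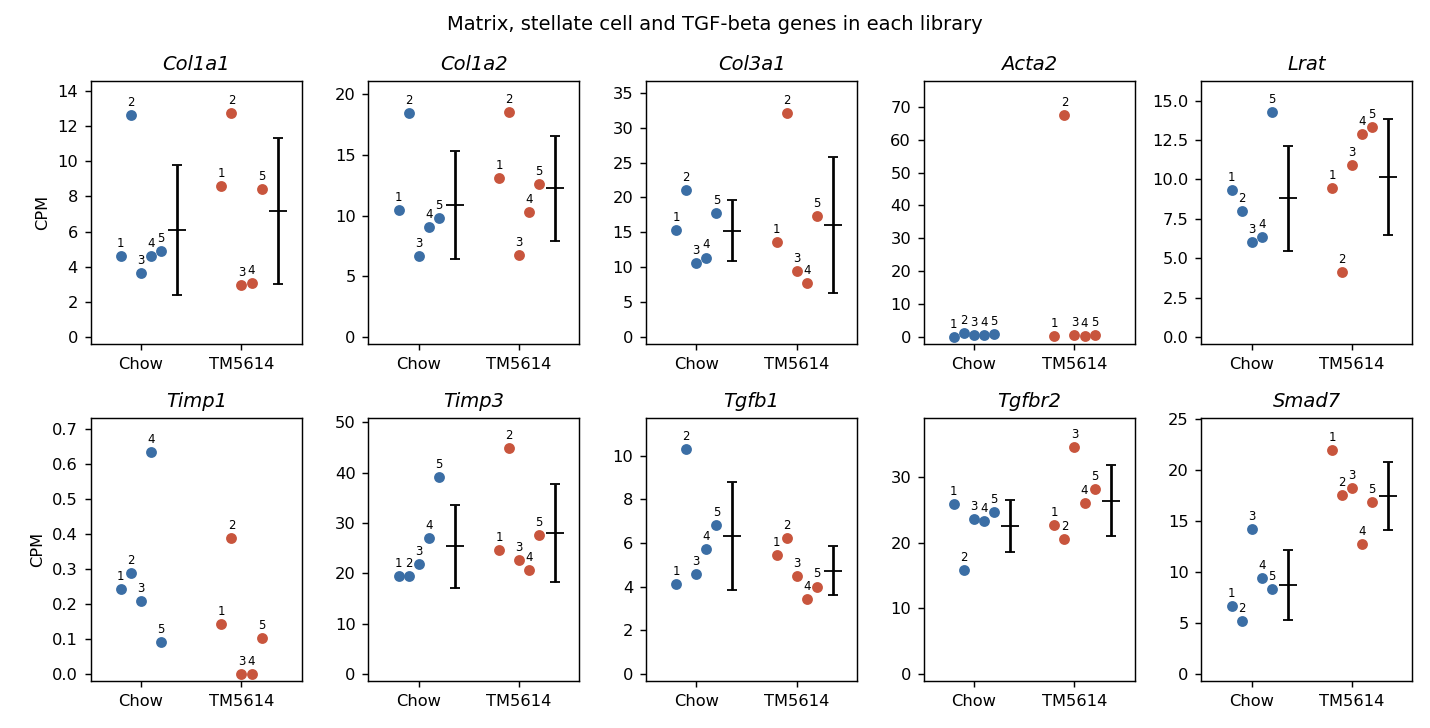
CPM of each gene (y axis, from 0) in each library, with Chow in blue, TM5614 in red and numbers giving the replicate; black bars are mean ± SD (n = 5) for the 8 genes tested. Smad7 is the panel where the groups nearly separate, with only Chow 3 (14.2 CPM) above TM5614 4 (12.7 CPM), and TM5614 2 stands alone for Acta2 at 67.3 CPM.

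Per length, the 10 genes were expressed at low levels. FPKM (counts scaled by gene length and library) in Chow averaged 5.35 ± 1.73 (SD, n = 5) for Timp3 and 4.68 ± 0.820 for Tgfbr2, the highest of the 10. They were followed by Tgfb1 at 2.98 ± 1.16, Col3a1 at 2.71 ± 0.780, Col1a2 at 2.09 ± 0.856, Smad7 at 1.94 ± 0.766, Lrat at 1.63 ± 0.613 and Col1a1 at 1.28 ± 0.778. Neighbours in this order differed by less than the larger of their SDs, except for the step from Tgfbr2 to Tgfb1. Timp1 at 0.325 ± 0.225 FPKM and Acta2 at 0.264 ± 0.167 FPKM lay below them all. In TM5614 the level of Smad7, 3.87 ± 0.734 FPKM, lay below those of Timp3 (5.90 ± 1.99) and Tgfbr2 (5.45 ± 1.14) and, through TM5614 2 alone, the mean of Acta2, while the order of Col3a1, Col1a2, Lrat and Col1a1 was as in Chow. Without TM5614 2 the TM5614 means were 2.16 FPKM for Lrat, 2.15 for Col3a1, 2.06 for Col1a2 and 1.22 for Col1a1.

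Col1a1 and Col1a2 encode the alpha1 and alpha2 chains of collagen I, the main collagen of scar tissue, and Col3a1 encodes the chain of collagen III. Their genes lie at chr11:94936224-94953042, chr6:4504814-4541544 and chr1:45311538-45349706 on the plus strand of GRCm38 (mm10). Col1a1 was at 4.61, 12.6, 3.65, 4.59 and 4.88 CPM in Chow 1 to 5 and at 8.62, 12.7, 2.98, 3.09 and 8.42 CPM in TM5614 1 to 5. Replicate 2 was the highest library of each group, and the remaining TM5614 libraries lay on both sides of the remaining Chow libraries. The group means were 6.07 ± 3.70 and 7.16 ± 4.14 CPM (SD, n = 5 each) and gave a log2 fold change of 0.22 (SE 0.44, 95% interval -0.75 to 1.18) with an adjusted p of 0.806 in edgeR.

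Col1a2 ranged over the same libraries in much the same way. It was at 10.4, 18.4, 6.68, 9.03 and 9.84 CPM in Chow and at 13.1, 18.6, 6.77, 10.3 and 12.6 CPM in TM5614. The lowest library of each group was replicate 3, the highest replicate 2, and its log2 fold change reached 0.16 (SE 0.29, 95% interval -0.48 to 0.80, edgeR adjusted p = 0.774). Col3a1 was at 15.3, 21.1, 10.6, 11.4 and 17.8 CPM in Chow and at 13.6, 32.1, 9.52, 7.77 and 17.3 CPM in TM5614, with means of 15.3 ± 4.39 and 16.1 ± 9.68 CPM. The TM5614 range enclosed the whole Chow range, for a log2 fold change of 0.06 (SE 0.35, 95% interval -0.69 to 0.82, edgeR adjusted p = 0.932). The interval of Col1a1 reached 1.18 on the log2 scale. Changes within it were therefore not excluded with 5 mice a group and 26 to 131 counts of the gene per library. The smallest detectable change was not computed.

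Single libraries moved the collagen estimates, and leaving out TM5614 2 turned all 3 signs. Without TM5614 2, the log2 fold changes were -0.10 for Col1a1, -0.04 for Col1a2 and -0.35 for Col3a1. Without Chow 2 they were 0.67, 0.43 and 0.20, and without both they were 0.37, 0.24 and -0.20. Col3a1 also had an estimate below 0 without Chow 3 or Chow 4 (-0.04 and -0.03). None of the 9 values without Chow 2, TM5614 2 or both passed the test, with edgeR adjusted p from 0.310 to 0.946.

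The 3 collagen genes rose and fell together from mouse to mouse. With the group means removed, log2 CPM of Col1a1 and Col1a2 correlated at r = 0.919 (Spearman rho = 0.952) over 10 libraries, with an adjusted exact permutation p of 0.00375 for r and 0.00417 for rho (raw p = 0.000347 for each), adjusted over 12 gene pairs. Col1a1 and Col3a1 correlated at r = 0.876 (rho = 0.903; adjusted exact permutation p = 0.00375 and 0.015), and Col1a2 and Col3a1 at r = 0.810 (rho = 0.830; adjusted exact permutation p = 0.0239 and 0.0264). Leaving out TM5614 2 and Chow 2, the libraries farthest from the median, gave r = 0.794, 0.837 and 0.676 over 8 libraries, which no longer passed after adjustment (exact permutation, adjusted p = 0.104, 0.25 and 0.267). With fewer libraries the test also has fewer arrangements, and the part of Chow 2 and TM5614 2 in the correlations was not tested.

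**Figure D2:**
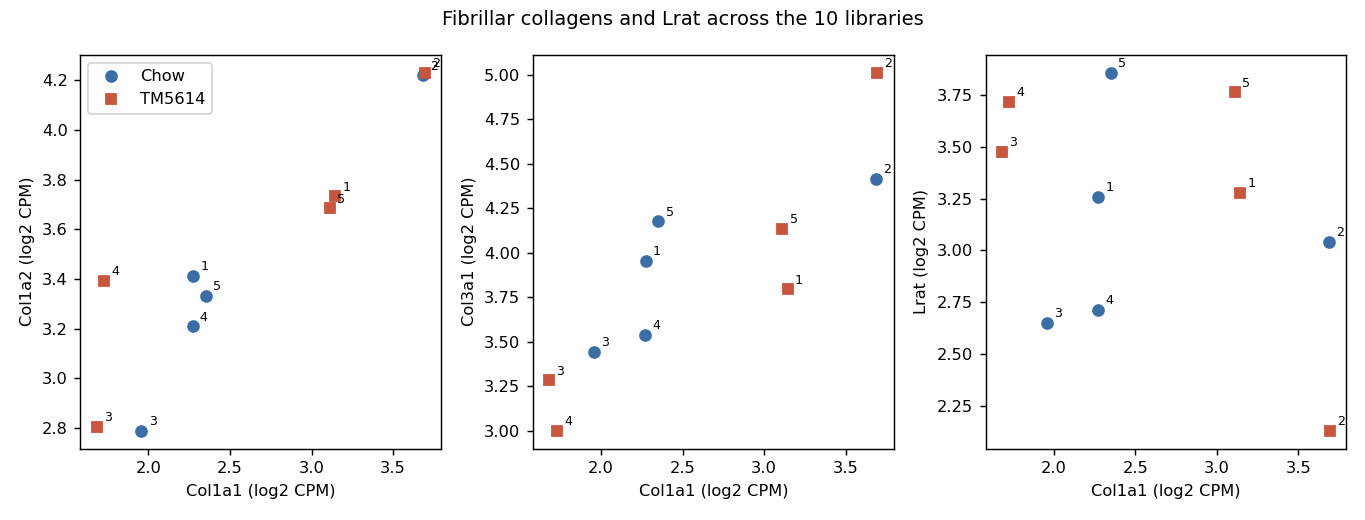
Log2 CPM of Col1a1 (x axis) against Col1a2, Col3a1 and Lrat (y axes) in the 10 libraries, with circles for Chow, squares for TM5614 and numbers for the replicate. The collagens line up with each other (r = 0.919 and 0.876 with group means removed), with Chow 2 and TM5614 2 at the upper right, whereas Lrat does not (r = -0.387).

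The proportions of the collagen transcripts varied less than their levels. The ratio of Col1a1 to Col1a2 in FPKM was 0.587 ± 0.101 in Chow and 0.602 ± 0.189 in TM5614 (SD, n = 5 each), with a range of 0.328 to 0.751 over the 10 libraries. The ratio of Col3a1 to Col1a2 was 1.35 ± 0.245 in Chow and 1.17 ± 0.345 in TM5614. In both cases the groups differed by less than their SD.

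Acta2 encodes alpha smooth muscle actin, which marks activated stellate cells and vascular smooth muscle, and lies at chr19:34241090-34255590 on the minus strand. Its counts in Chow 1 to 5 were 0, 12, 7, 4 and 10, and in TM5614 1 to 5 they were 3, 519, 6, 3 and 7. The gene was thus near its detection floor in 9 livers, at 0 to 1.16 CPM, and at 67.3 CPM in TM5614 2. Fitted with no filter on low counts, it gave a log2 fold change of 4.23 (SE 1.45, adjusted p in edgeR 0.179), and without TM5614 2 it was -0.36 (adjusted p = 0.791), so the estimate above 0 was that of 1 library.

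Of 8 tested myofibroblast and smooth muscle markers, 6 were highest in TM5614 2, 1 in Chow 2 and 1 in Chow 3. In TM5614 2 the smooth muscle, cardiac and skeletal muscle transcripts given here were raised along with Acta2. Acta2 was 58.2-fold above the highest of the other 9 libraries. The cardiac actin gene Actc1 was 58.7-fold above, the enteric actin gene Actg2 51.6-fold and the skeletal actin gene Acta1, at 1211 CPM, 54.4-fold. Myh11, the smooth muscle myosin heavy chain, was 41.6-fold above the next library, Cnn1 (calponin) 43.0-fold, Des (desmin) 34.0-fold and Ckm (muscle creatine kinase) 56.9-fold, and Tagln (transgelin) 8.74-fold. The highest other value was only 1.16 CPM for Acta2, 0.688 for Actc1, 0.317 for Actg2 and 0.344 for Cnn1. These lie near the floor, so the sizes of those folds are uncertain. It was 1.93 to 22.2 CPM for Myh11, Tagln, Ckm, Des and Acta1. Actin genes share near-identical coding sequence, so how the counting divided reads between Acta1 and the other actins is uncertain. The part of muscle RNA in the Acta2 value was not tested.

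**Figure D3:**
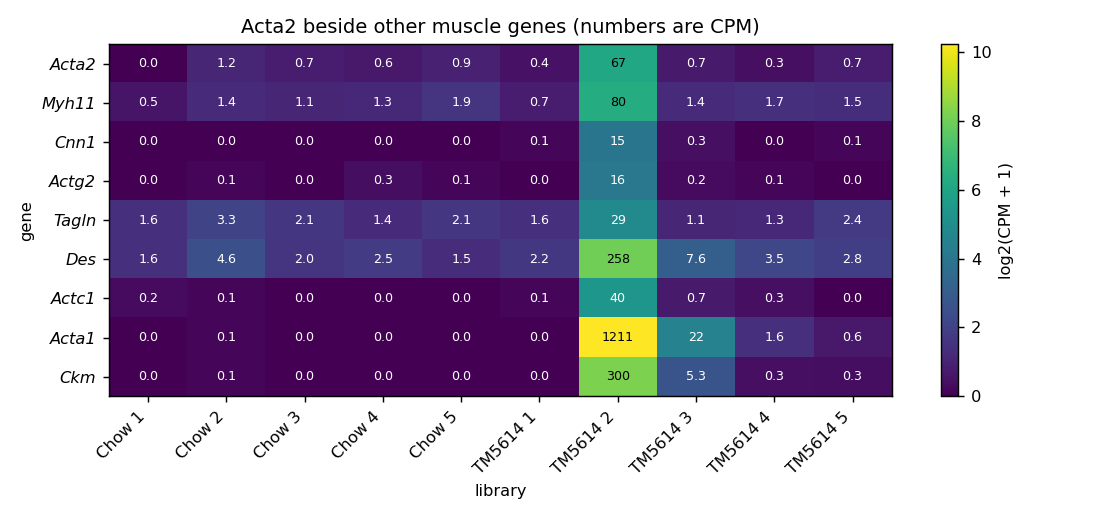
Acta2 and 8 other muscle genes (rows) in the 10 libraries (columns), coloured by log2(CPM + 1) with CPM printed in each cell. The column of TM5614 2 is high for every gene, with Acta2 at 67 CPM, and TM5614 3 has the next highest Acta1 value at 22.2 CPM.

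Lrat encodes lecithin retinol acyltransferase, the enzyme that esterifies retinol in quiescent stellate cells, and lies at chr3:82892579-82903973 on the minus strand, within a long noncoding gene of the opposite strand that shares 0 exon bases with it. It was at 9.34, 8.01, 6.06, 6.34 and 14.3 CPM in Chow and at 9.48, 4.15, 10.9, 12.9 and 13.3 CPM in TM5614. The lowest value of all was in TM5614 2 and the highest in Chow 5, and the groups overlapped. Means of 8.80 ± 3.33 and 10.2 ± 3.70 CPM gave a log2 fold change of 0.20 (SE 0.31, 95% interval -0.47 to 0.87, edgeR adjusted p = 0.730). The estimate was 0.39 without TM5614 2 and -0.03 once GC content and gene length were taken out, and neither value passed the test.

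No correlation of the stellate cell genes passed after adjustment. Over the 10 libraries with group means removed, Lrat and Col1a1 correlated at r = -0.387 (rho = -0.236, adjusted exact permutation p = 0.395 and 0.660). Lrat and Acta2 correlated at r = -0.730 (rho = -0.418, adjusted exact permutation p = 0.142 and 0.287), which became 0.052 without TM5614 2 and Chow 3 (adjusted exact permutation p = 0.903). Acta2 and Col1a1 gave r = 0.562 (rho = 0.515, adjusted exact permutation p = 0.146 and 0.201), and Timp3 and Lrat gave r = -0.274 (rho = -0.164, adjusted exact permutation p = 0.458 and 0.729).

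Among 25 stellate cell markers, 23 were tested and none passed in edgeR, with 6 at an unadjusted p under 0.05, 0 passing in DESeq2 and 2 (Dcn and Pdgfra, higher) in limma-voom. Their median log2 fold change was 0.20, and their summed level was 380 to 617 CPM in Chow and 516 to 761 CPM in TM5614 (up to 660 CPM without TM5614 2). Dcn (decorin), the small proteoglycan of stellate cells, averaged 143 ± 34.1 CPM in Chow and 190.5 ± 22.7 CPM in TM5614 (log2 fold change 0.42, SE 0.16, edgeR adjusted p = 0.185). Hgf, the hepatocyte growth factor made by these cells, was at 3.50 ± 1.40 and 6.10 ± 1.80 CPM (0.80, SE 0.31, edgeR adjusted p = 0.180). Without both Chow 2 and TM5614 2, Hgf passed (0.77, edgeR adjusted p = 0.0268) and was the 1 stellate cell marker to do so. Pdgfrb, their PDGF receptor, was at 7.83 ± 1.42 and 8.51 ± 2.56 CPM (0.12, SE 0.22, edgeR adjusted p = 0.788). Des was at 258 CPM in TM5614 2 and 1.47 to 7.57 CPM in the other 9 libraries.

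Of 15 myofibroblast and smooth muscle markers, 8 were tested and none passed in edgeR, DESeq2 or limma-voom, although 3 had an unadjusted p under 0.05 in edgeR. Their summed level was 142 to 174 CPM in Chow, 142 to 161 CPM in 4 TM5614 libraries and 1099 CPM in TM5614 2, and the median log2 fold change of 1.16 was 0.04 without that library. Of 16 portal fibroblast and mesothelial markers, 10 were tested and none passed in edgeR (2 at an unadjusted p under 0.05, 2 passing in DESeq2 and 2 in limma-voom). Their median log2 fold change of 0.52 was -0.13 without TM5614 2, where their summed level was 102 CPM against 42.3 to 57.9 CPM in the rest of the group and 39.6 to 65.1 CPM in Chow.

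Timp1 and Timp3 encode tissue inhibitors of metalloproteinases. Timp1, which is low in healthy liver and induced by injury, lies at chrX:20870166-20874735 on the plus strand, within Syn1, a gene of the opposite strand with which it shares 0 exon bases. It gave 2, 3, 2, 4 and 1 counts in Chow and 1, 3, 0, 0 and 1 counts in TM5614, which is 0.293 ± 0.204 and 0.127 ± 0.160 CPM. No library held more than 4 counts, so a fall or a modest rise was not detectable at this depth. Timp1 and Col1a1 correlated at r = 0.596 with group means removed (rho = 0.608, adjusted exact permutation p = 0.143 and 0.188). Its fit with no filter on low counts gave a log2 fold change of -1.11 (SE 0.85, adjusted p in edgeR 0.537).

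Timp3, which unlike the other TIMPs binds the matrix, lies at chr10:86300372-86349506 on the plus strand within Syn3, a gene of the opposite strand that shares 1733 exon bases with it, so without stranded counting reads of the pair cannot be told apart. It was at 19.4, 19.4, 21.9, 27.1 and 39.1 CPM in Chow and at 24.6, 44.9, 22.7, 20.6 and 27.6 CPM in TM5614. The highest TM5614 value was again TM5614 2, whereas the highest Chow value was Chow 5. Means of 25.4 ± 8.29 and 28.1 ± 9.76 CPM gave a log2 fold change of 0.14 (SE 0.25, 95% interval -0.40 to 0.68, edgeR adjusted p = 0.765), and the estimate was -0.09 without TM5614 2.

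Of 25 genes for metalloproteinases and their inhibitors, 10 were tested and 3 passed, which is 30% against 4.5% of all genes tested. This list too was chosen with earlier results of these data known, so the shares are descriptions. Adamts1, a secreted protease that cleaves proteoglycans, rose from 8.03 ± 1.08 to 13.4 ± 3.11 CPM (log2 fold change 0.74, SE 0.18, edgeR adjusted p = 0.0388). Mmp15, a membrane-anchored metalloproteinase, fell from 46.2 ± 10.7 to 25.2 ± 4.02 CPM (-0.88, SE 0.17, edgeR adjusted p = 0.0124), and Mmp19 fell from 92.8 ± 7.41 to 68.1 ± 7.27 CPM (-0.45, SE 0.11, edgeR adjusted p = 0.0356). Every TM5614 library lay below every Chow library for Mmp15 and Mmp19. Mmp15 passed under each of 20 alternative settings, whereas Adamts1 passed under 11 and Mmp19 under 10.

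The proteases and inhibitor most often measured beside these genes did not pass. Mmp2, a gelatinase of stellate cells, was at 2.02 ± 0.975 and 3.16 ± 0.527 CPM (log2 fold change 0.61, SE 0.32, edgeR adjusted p = 0.307). Mmp14, which activates MMP2 at the cell surface, was at 53.2 ± 15.3 and 57.6 ± 5.88 CPM (0.11, SE 0.17, adjusted p = 0.731), and Timp2 was at 13.9 ± 4.20 and 18.4 ± 4.93 CPM (0.39, SE 0.24, adjusted p = 0.366).

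Tgfb1 encodes TGF-beta 1, the ligand, and lies at chr7:25687002-25705077 on the plus strand. It was at 4.12, 10.3, 4.59, 5.70 and 6.81 CPM in Chow and at 5.46, 6.23, 4.47, 3.43 and 4.00 CPM in TM5614. Chow 2 held the highest value and TM5614 4 the lowest, with the rest of both groups between 4.00 and 6.81 CPM. Tgfb1 was the only one of the 8 tested genes with an estimate below 0, with means of 6.31 ± 2.47 and 4.72 ± 1.13 CPM and a log2 fold change of -0.44 (SE 0.26, 95% interval -1.01 to 0.14, edgeR adjusted p = 0.373). Without Chow 2 the estimate was -0.19 (adjusted p = 0.652).

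Tgfb1 followed Col1a1 over the 10 libraries at r = 0.762 (rho = 0.685; adjusted exact permutation p = 0.0419 for r and 0.104 for rho, group means removed). Without Chow 2 and TM5614 4 the correlation was 0.440 (adjusted exact permutation p = 0.408). Here too the test had fewer arrangements, and the part of those libraries in the correlation was not tested. Tgfb1 and Acta2 gave r = 0.572 (rho = 0.697, adjusted exact permutation p = 0.0585 and 0.0990). Markers of Kupffer cells and macrophages, which make much of the liver's TGF-beta 1, were highest in Chow 2 for 9 of 15 genes. Chow 2 was also the highest library for 6 of 16 liver endothelial, 6 of 23 stellate cell and 4 of 12 hepatocyte markers. Of the 15 macrophage genes, 14 had an estimate below 0 and none passed in edgeR (0 at an unadjusted p under 0.05, 0 passing in DESeq2 and 1 in limma-voom). Their summed level was 245 to 458 CPM in Chow, with 444 CPM in Chow 2. It was 233 to 362 CPM in TM5614, with a median log2 fold change of -0.40. The median was -0.17 without both Chow 2 and TM5614 2 and -0.08 with limma-voom, which weights the libraries, and their part in the Tgfb1 value was not tested.

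Tgfbr2 encodes the type II receptor and lies at chr9:116084293-116175360 on the minus strand. It was at 26.0, 15.8, 23.6, 23.3 and 24.7 CPM in Chow and at 22.7, 20.6, 34.6, 26.2 and 28.2 CPM in TM5614. Chow 2 was the lowest of all libraries and TM5614 2 the lowest of its group. Means of 22.7 ± 3.97 and 26.5 ± 5.43 CPM gave a log2 fold change of 0.23 (SE 0.17, 95% interval -0.14 to 0.60, edgeR adjusted p = 0.465), and 0.12 without Chow 2. Tgfb1 and Tgfbr2 correlated at r = -0.744 over the 10 libraries (rho = -0.564, adjusted exact permutation p = 0.0565 and 0.199). The other receptor genes gave values on the same side of the test: Tgfbr1, the type I receptor, was at 27.5 ± 9.38 and 35.5 ± 3.18 CPM (log2 fold change 0.37, SE 0.23, edgeR adjusted p = 0.386), and Tgfbr3, the co-receptor betaglycan, at 11.3 ± 3.51 and 13.4 ± 1.77 CPM (0.25, SE 0.20, adjusted p = 0.490). None of the 7 receptor and co-receptor genes tested passed in edgeR, DESeq2 or limma-voom, and none had an unadjusted p under 0.05 in edgeR.

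Smad7, the inhibitory SMAD encoded on the plus strand of chromosome 18, was the gene that changed. It was at 6.67, 5.21, 14.2, 9.35 and 8.28 CPM in Chow 1 to 5 and at 22.0, 17.5, 18.2, 12.7 and 16.8 CPM in TM5614 1 to 5. In TM5614, 4 of 5 libraries lay above every Chow library, and only Chow 3 exceeded a TM5614 library, namely TM5614 4. The mean was 8.74 ± 3.43 CPM in Chow and 17.4 ± 3.32 CPM in TM5614, a fold of 1.99 (log2 fold change 1.00, SE 0.24, 95% interval 0.46 to 1.53, edgeR adjusted p = 0.0402). The counts behind these values were 54 to 164 per library.

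The size of the Smad7 difference was steady and its call was near the threshold. Over 20 alternative settings the log2 fold change ran from 0.80 (limma-voom) to 1.25 (without Chow 3), and 11 settings passed, among them DESeq2 (adjusted p = 0.00304) and limma-voom (adjusted p = 0.0216). With 1 library left out, it passed without Chow 2 (adjusted p = 0.0273) or Chow 3 (adjusted p = 0.0102). It did not pass without Chow 1 (adjusted p = 0.0800), Chow 4 (0.0751), Chow 5 (0.0787), TM5614 1 (0.0974), TM5614 2 (0.0706), TM5614 3 (0.107), TM5614 4 (0.05004) or TM5614 5 (0.0802). With no filter on low counts the adjusted p was 0.0541.

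**Figure D4:**
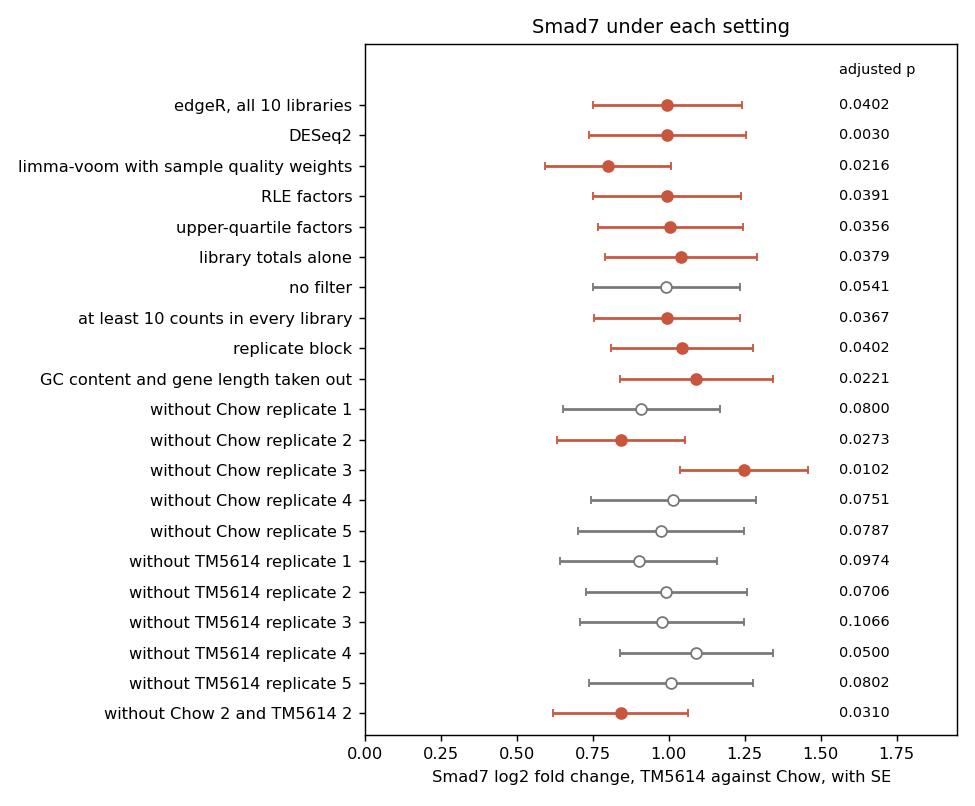
Log2 fold change of Smad7 (x axis, TM5614 against Chow) with its SE under the edgeR fit of all 10 libraries and 20 alternatives (rows), with the adjusted p at the right and filled points for values under 0.05. The estimate stays between 0.80 and 1.25 while 9 of the alternatives have an adjusted p of 0.05 or more.

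From mouse to mouse, Smad7 and Tgfbr2 correlated at r = 0.283 with group means removed (rho = 0.127, adjusted exact permutation p = 0.458 and 0.747) and at -0.471 without Chow 2 and TM5614 3 (adjusted exact permutation p = 0.339). The tested genes with the pattern most like Smad7 over all 10 libraries, out of 11064 candidates, were Ppp4r1 (r = 0.971), Klf11 (r = 0.956) and Slc35e1 (r = 0.928). These r values include the difference between groups and describe likeness in 10 libraries. Of the 3, Klf11 also passed the edgeR test, rising from 13.0 ± 3.05 to 21.5 ± 2.68 CPM (log2 fold change 0.72, SE 0.16, adjusted p = 0.0287).

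Of 20 SMADs and their regulators, 19 were tested and Nedd4l passed beside Smad7. Nedd4l, a ubiquitin ligase that acts on SMADs and on the receptor, rose from 29.4 ± 7.67 to 69.1 ± 14.4 CPM without overlap between groups (log2 fold change 1.23, SE 0.20, edgeR adjusted p = 0.00406), and it passed under each of 20 alternative settings. With DESeq2 3 of the 19 passed, with limma-voom 4, without TM5614 2 only Nedd4l and without both Chow 2 and TM5614 2 5. Calls over all genes also changed with the setting, from 499 of 11092 to 900 with DESeq2 and 1386 with limma-voom. They were 373 of 11196 without TM5614 2 and 1230 of 11053 without both. List counts under these settings, here and for the other lists, are to be read beside these totals. The signal-carrying SMADs did not pass in the edgeR test of all 10 libraries. Smad2 was at 29.0 ± 7.89 and 23.8 ± 2.08 CPM (-0.28, SE 0.19, edgeR adjusted p = 0.426). It passed lower without Chow 2 (-0.44, edgeR adjusted p = 0.0126), without both Chow 2 and TM5614 2 (-0.40, adjusted p = 0.0169), with GC content and gene length taken out (-0.43, adjusted p = 0.0282) and with limma-voom (-0.41, adjusted p = 0.0187). Smad3 was at 16.0 ± 2.44 and 17.8 ± 2.63 CPM (0.16, SE 0.15, edgeR adjusted p = 0.566) and Smad4 at 36.6 ± 3.38 and 36.4 ± 2.70 CPM (-0.01, SE 0.10, adjusted p = 0.972).

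Among genes listed here as TGF-beta targets, 25 of the 30 found in the data were tested. In edgeR 5 passed, all of them higher: Smad7, Thbs1, Cdkn1a, Id2 and Id3. This is 20.0% of the list, against 1.73% higher among all genes tested. The list was chosen with earlier results of these data known and holds Smad7 itself, so these shares are not an independent test. Cdkn1a, the cell cycle inhibitor p21, rose from 1.97 ± 0.699 to 10.8 ± 4.87 CPM (log2 fold change 2.46, SE 0.36, edgeR adjusted p = 0.00238). Id2, an inhibitor of basic helix-loop-helix factors that also answers to BMP signals, rose from 82.0 ± 23.4 to 205 ± 53.4 CPM (1.32, SE 0.23, edgeR adjusted p = 0.00733). For both genes the groups did not overlap and each of 20 alternative settings passed.

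Id3, a relative of Id2, rose from 12.5 ± 5.52 to 36.3 ± 19.2 CPM (log2 fold change 1.52, SE 0.39, edgeR adjusted p = 0.0478) with overlapping groups and passed under 10 of 20 settings. Thbs1, thrombospondin 1, which activates latent TGF-beta, rose from 0.842 ± 0.182 to 2.32 ± 0.823 CPM (1.45, SE 0.31, edgeR adjusted p = 0.0210) without overlap, at 6 to 26 counts per library, and passed under 17 of 19 settings. These genes are also induced by other signals, Cdkn1a by p53 and Id2 and Id3 by BMPs. Which signal raised them was not tested. With DESeq2, 6 of the 25 passed higher and 1 lower, and with limma-voom, and also without both Chow 2 and TM5614 2, 5 passed higher and 1 lower. The gene called lower in each was Bhlhe40, a circadian transcriptional repressor. Without TM5614 2, 3 of the 25 passed, all higher.

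Ctgf, connective tissue growth factor, a fibrogenic target of TGF-beta, was not among them. It was at 7.04 ± 3.16 and 13.5 ± 5.39 CPM (log2 fold change 0.95, SE 0.34, edgeR adjusted p = 0.141). The collagen I genes Col1a1 and Col1a2 belong to the same list and gave the values above.

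Among the other matrix genes few values passed. Of 20 fibrillar and basement membrane collagen genes, 17 were tested, 12 had an estimate above 0 and 1 passed. This is 5.88%, close to the 4.5% of all genes tested. The gene was Col27a1, a fibrillar collagen of cartilage. It fell from 30.1 ± 18.0 to 9.74 ± 2.90 CPM without overlap (log2 fold change -1.64, SE 0.35, edgeR adjusted p = 0.0216), and passed under 15 of 20 settings. With DESeq2 and with limma-voom 3 of the 17 passed, all lower (Col27a1, Col5a3 and Col18a1), without both Chow 2 and TM5614 2 the former 2 passed, and without TM5614 2 none did. Col4a1, a basement membrane collagen, was at 21.8 ± 5.97 and 28.8 ± 5.14 CPM (0.40, SE 0.19, edgeR adjusted p = 0.252). Of the 17, 5 were highest in Chow 2 and 8 in TM5614 2. Of 28 other matrix proteins, 25 were tested and none passed in edgeR (7 at an unadjusted p under 0.05, 1 passing in DESeq2 and 2 in limma-voom). Of these 25, 13 were highest in TM5614 2, and the median log2 fold change of 0.39 was 0.03 without it. Of the collagen processing and crosslinking genes, 14 were tested and none passed in edgeR (3 at an unadjusted p under 0.05, 0 passing in DESeq2 and 1 in limma-voom).

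Over these pathway lists together, leaving out the 10 genes themselves, 117 of 152 genes were tested and 9 passed. This is 7.69% against 4.5% of all genes, in the edgeR fit of all 10 libraries and for lists chosen with earlier results known. With DESeq2, 15 list genes passed beside 900 of all genes, and with limma-voom 17 beside 1386. In the fit without TM5614 2 there were 5 beside 373. Of the 117, 80 had an estimate above 0, with a median log2 fold change of 0.16, and 30 had an unadjusted p under 0.05. Without TM5614 2, list medians (with the 10 genes included) were -0.04 for collagens, 0.03 for other matrix proteins and -0.06 for collagen processing. They were 0.13 for metalloproteinases and inhibitors, -0.14 for TGF-beta ligands, 0.19 for receptors, 0.07 for SMADs and 0.11 for targets. With all 10 libraries they were, in the same order, 0.10, 0.39, 0.13, 0.15, 0.11, 0.23, 0.11 and 0.30. The 9 genes that passed were Nedd4l, Thbs1, Cdkn1a, Id2, Id3 and Adamts1, which rose, and Mmp15, Mmp19 and Col27a1, which fell.

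**Figure D5:**
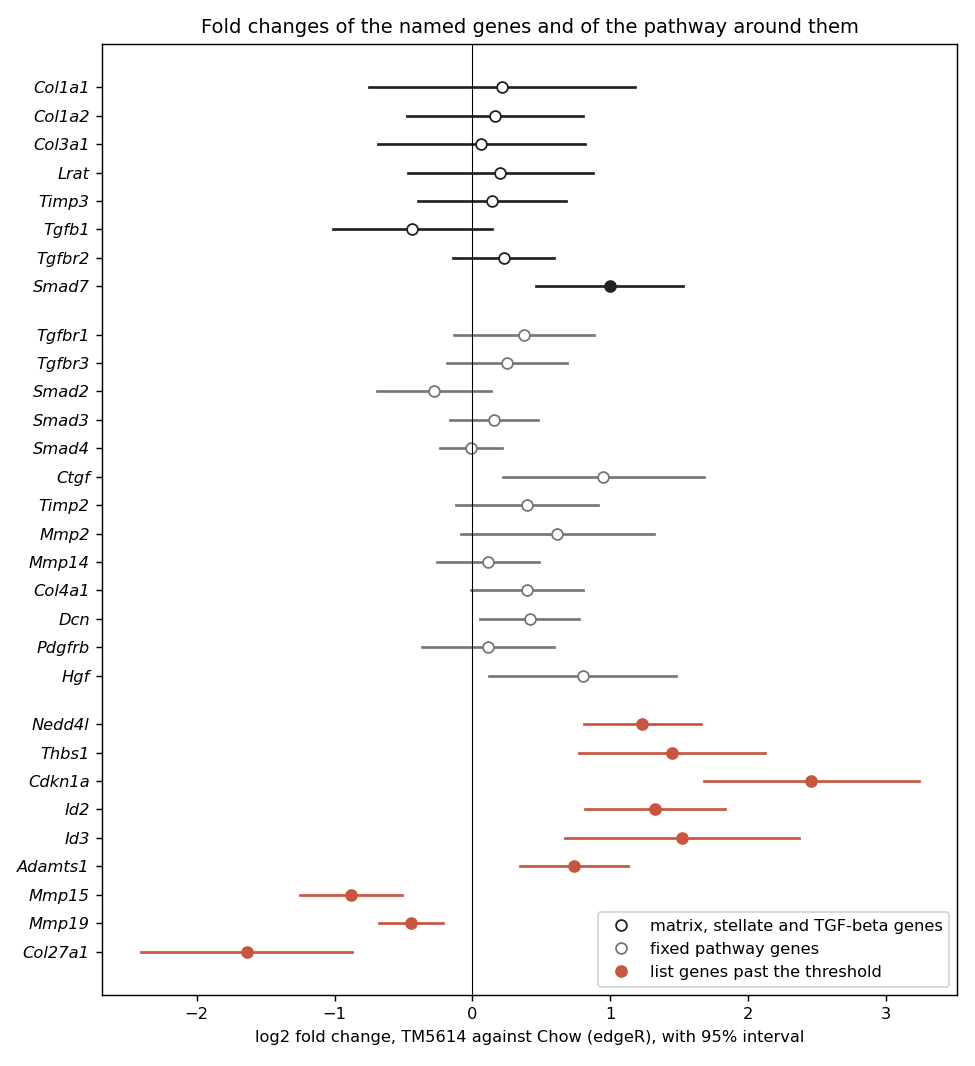
Log2 fold change of TM5614 against Chow (x axis) with 95% intervals from edgeR for the 8 tested genes (black), a fixed set of pathway genes (grey) and list genes past the threshold (red); filled points have an adjusted p under 0.05. The collagen, Lrat, Timp3, Tgfb1 and Tgfbr2 intervals cross 0, whereas Smad7 lies at 1.00 and Nedd4l, Thbs1, Cdkn1a, Id2 and Id3 lie further to the right.

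The genes with the most similar patterns over the 10 libraries differed between the groups of genes. For Col1a1 they were Col1a2 (r = 0.918), the tenascin gene Tnxb (r = 0.916) and Iffo1 (r = 0.915), and for Col1a2 they were the collagen receptor gene Mrc2 (r = 0.967), Col1a1 (r = 0.918) and the procollagen peptidase gene Adamts2 (r = 0.908). For Col3a1 they were Anxa2 (r = 0.936) and the latent TGF-beta binding protein genes Ltbp3 (r = 0.927) and Ltbp4 (r = 0.923). The nearest genes of Timp3 were Mcam (r = 0.953), Oxct1 (r = 0.925) and Fam102b (r = 0.920).

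The nearest patterns of the remaining genes were not those of matrix genes. Lrat was most like Fam98b (r = 0.891), Iigp1 (r = 0.886) and Cyp2c69 (r = 0.868), Tgfb1 most like Tyw1 (r = 0.943), Itm2c (r = 0.942) and Tmem180 (r = 0.937), and Tgfbr2 most like Eif2s1 (r = 0.943), Ppfia1 (r = 0.942) and Zfp961 (r = 0.940). These are the highest of 11064 correlations in 10 libraries that include Chow 2 and TM5614 2, and they are descriptions without a test.

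Markers of the remaining cell types in whole liver gave 1 gene that passed in edgeR. The cholangiocyte list had 5 tested genes, of which Cdh1 (E-cadherin, also made by hepatocytes) rose from 26.9 ± 5.49 to 42.1 ± 7.66 CPM (log2 fold change 0.65, SE 0.17, edgeR adjusted p = 0.0482) and passed under 11 of 20 settings. That is 20% of a short list, against 4.5% of all genes tested. Of 16 liver endothelial markers, none passed in edgeR (2 at an unadjusted p under 0.05), DESeq2 or limma-voom, with summed levels of 225 to 369 CPM in Chow and 229 to 383 CPM in TM5614. Of 12 hepatocyte markers, none passed in edgeR (2 at an unadjusted p under 0.05) and 1 each in DESeq2 and limma-voom. Platelet markers summed to 1.88 to 4.82 CPM in Chow and 1.44 to 3.76 CPM in TM5614, and lymphocyte and neutrophil markers to 6.99 to 17.0 and 6.97 to 18.9 CPM, with 1 and 2 genes tested and none passing in edgeR, at an unadjusted p under 0.05 or in the other tools.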

How the data were processed

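Livers of 10 male mice were sequenced, 5 per diet. Per the study's methods, poly(A) libraries were sequenced from 1 end on a NextSeq and aligned with STAR to mm10; the annotation, the tool versions and the strand used in counting are not given in the sources used here. The authors deposited raw counts per gene symbol, which were tested here, and FPKM values, scaled by gene length and library, which gave levels per length. The authors' DESeq2 comparison (fold changes and p-values) and their regularised log values were not used. Columns were matched to samples by mouse number.

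The 10 genes and all gene lists were chosen with earlier results of these data known. Named genes are the 10, the list genes past the threshold, 15 fixed pathway genes (1 of them is not reported here) and, for each gene tested, the 3 genes of highest correlation; Klf11 alone of these 3-gene sets was given with its test, after its values were seen, and Bhlhe40, Col5a3, Col18a1 and Pdgfra were likewise named after theirs were seen. Counts were filtered with filterByExpr, scaled with TMM and tested with edgeR 4.0.16 (two-sided glmQLFTest, TM5614 against Chow, no block) in R 4.3.3. CPM are counts scaled by TMM library size, with a prior count of 2 for log2. Standard errors and 95% intervals came from the same fit. Gene pairs were correlated with exact two-sided permutations within groups, adjusted over 12 pairs. P-values measure the spread between mice. Alternatives were DESeq2 1.42.0, limma 3.58.1 (voom with sample quality weights), other scalings and filters, GC content and gene length taken out (splines of 5 degrees of freedom, for the 96.7% of tested genes with values), the replicate number as block, and libraries left out. Over 20 pairs within groups, chi-square per degree of freedom was at least 7.5, so no library was taken as deposited a second time. The edgeR step was tested on simulated data. Promoters came from RefSeq (GRCm38.p6; 8 of the 10 genes used) and gene positions from GENCODE on GRCm38.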

Additional observations from a re-analysis of the deposited data

Results flagged for a closer look

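Of 20 groups of 5 values (10 genes in each of 2 diets), 4 held a library whose gap to the nearest other value was large for the range of its group. The gap over the range was 0.994 for Acta2, 0.864 for Col1a1, 0.737 for Tgfbr2 and 0.711 for Timp3. The highest value not picked was 0.681, for Col1a2 in Chow. For independent, normally distributed values chance gives about 1 in 20, whereas these groups share the same libraries. Col1a1 was at 12.6 CPM in Chow 2 and at 3.65 to 4.88 CPM in the other Chow libraries. Tgfbr2 was at 15.8 CPM in Chow 2 and at 23.3 to 26.0 CPM in the others of its group. Acta2 was at 67.3 CPM in TM5614 2 and at 0.343 to 0.718 CPM in the other TM5614 libraries. Timp3 was at 44.9 CPM in TM5614 2 and at 20.6 to 27.6 CPM in the others of its group. All 4 values were in the 2 libraries described above as standing apart.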

How the results depend on the processing

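Of 160 values for the 8 tested genes under 20 alternatives, 11 changed sign and only values of Smad7 passed the test. Col3a1 was -0.028 with limma-voom, -0.038 with the replicate number as block, -0.20 without both Chow 2 and TM5614 2, and -0.35 to 0.24 with 1 library left out; Lrat was -0.034 with GC content and gene length taken out. Without both libraries Timp3 was -0.18, Acta2 (no filter) -0.086 and Smad3 -0.015. With 1 library left out, Col1a1 ranged from -0.10 to 0.67, Col1a2 from -0.042 to 0.43, Timp3 from -0.093 to 0.36, Acta2 from -0.36 to 4.55, and Smad4 from -0.053 to 0.036, and Smad4 was 0.039 with library totals alone. The genes called over all genes tested, 499, became 900 with DESeq2, 1386 with limma-voom, 1230 without both libraries and 235 to 1031 with 1 left out (235 without TM5614 3, 1031 without Chow 2). All 499 were among those called by DESeq2 and by limma-voom. Of the 10 genes, 0 passed with no filter (where Smad7 had an adjusted p of 0.0541) and 0 to 1 with 1 library left out. Pathway list genes, 9, became 15, 17, 14 and 14 with DESeq2, limma-voom, the block and GC content taken out, 15 without both libraries and 5 to 12 with 1 left out. Same-numbered libraries of the 2 groups had correlations of deviations of 0.0316 to 0.318, and 1 Chow library was closest to its own number. With the replicate number as block, the SE fell from 0.44 to 0.24 for Col1a1 and from 0.29 to 0.13 for Col1a2. It fell from 0.35 to 0.17 for Col3a1, and only from 0.244 to 0.234 for Smad7. Whether same-numbered mice shared more than a number was not tested. The replicate block gave 555 calls, 416 of them shared, and 1.04 for Smad7 (edgeR adjusted p = 0.0402), and under it Ctgf (0.99, adjusted p = 0.0415) and Hgf (0.81, adjusted p = 0.0413) passed. Correlations without the 2 farthest libraries were 0.794, 0.837 and 0.676 for the collagen pairs, 0.440 for Tgfb1 and Col1a1, 0.052 for Lrat and Acta2 and -0.471 for Tgfbr2 and Smad7. Low counts limit Timp1, Acta2 and Thbs1.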
